A study of Homo sapiens with 45 samples.

Results

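MEG3, DLK1, H19, IGF2, PEG3, PEG10, MEST, NDN, GRB10 and PLAGL1 are 10 imprinted genes known for their part in growth, and their symbols were looked up among the 29159 genes counted in 3 established neuroblastoma lines. All 10 were found. Counts came from SK-N-BE(2)C (MYCN amplified, 1p loss), IMR-32 (MYCN and MEIS1 amplified, 1p loss) and SH-SY5Y (ALK mutant with gain of 1q and 17q, without MYCN amplification). Each line was grown as control, with 1 μM palbociclib (PB, an inhibitor of CDK4 and CDK6) for 24 h, and with PB for longer, which meant 7 d for SK-N-BE(2)C and 5 d for IMR-32 and SH-SY5Y. The 9 groups had 5 replicates each, which were different passages plated in independent experiments, for 45 libraries in all. The controls match the 24 h samples in collection time, and the longer groups therefore also spent more time in culture. Whether treatment lasted 7 d or 5 d and which line was treated cannot be told apart.

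At an imprinted gene only the copy from the mother or the copy from the father is normally used, and methylation set in the germ line marks which. MEG3 and DLK1 neighbour each other on chromosome 14, and H19 and IGF2 on chromosome 11; in each pair a long noncoding RNA comes from the maternal copy and a growth gene from the paternal copy. DLK1 is a transmembrane protein related to the Notch ligands and is known from the chromaffin cells of the adrenal medulla, which share the neural crest lineage with neuroblastoma. The counts do not separate the parental copies, so every value below is the sum over both.

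Libraries held 13459219 to 25441812 counts, so that 3 counts in a library stood for 0.118 to 0.223 CPM (counts per 1000000 counts of the library). MYCN was at 1296 to 5100 CPM in the libraries of both amplified lines and at 3.04 to 13.3 CPM in SH-SY5Y, and MEIS1 was at 300.4 to 446 CPM in IMR-32 and at 12.7 to 26 CPM elsewhere. Of 12 adrenergic (ADRN) markers, 11 averaged at least 1 CPM in the SH-SY5Y controls, among them DBH (1322 to 4397 CPM over the 15 libraries of that line) and HAND2 (1135 to 1459 CPM), whereas TH, the tyrosine hydroxylase of catecholamine synthesis, stood at 0.873 CPM or less in SH-SY5Y. Replicates 3, 4 and 5 of SK-N-BE(2)C lay closer to each other in the controls and at 24 h (a chi-square of 1.69 to 3.18 per degree of freedom) than other pairs of replicates did (7.05 to 23.6). The labels do not say whether these 3 share a source, so p-values from them alone may rest on too small a spread. IMR-32 replicate 5 stood apart from the other replicates of its line. By this measure its pairs reached at least 56.8 in control, 55.3 at 24 h and 22.3 at 5 d, against at most 12.4, 44.7 and 17.7 among the others, and its values are given apart below. A gene was called higher or lower at a Benjamini-Hochberg adjusted p under 0.05 with a log2 fold change beyond 0.5 in edgeR's quasi-likelihood test across all genes that passed the filter on low counts, and fold changes are given as log2 ± standard error. In bulk RNA, fewer cells that use a gene and less RNA of it per cell cannot be told apart.

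The stretch upstream of H19 is shown first, because H19 is the member whose change with PB differed most between the lines. It is known as the imprinting control region of H19 and IGF2, where the insulator protein CTCF binds the unmethylated copy. In GRCh37, H19 runs on the minus strand at chr11:2016396-2025782. The 6000 bases before the start at 2019072, which 7 of its 31 annotated transcripts share (chr11:2019073-2025072), were searched on both strands for GGNGGCAG, a short core of the CTCF motif. These letters were chosen after the region had been looked at. The window held 8 matches, all on the minus strand, at 5177, 4772, 4371, 2938, 2532, 2126, 1203 and 403 bases before that start, and the longest annotated transcripts of H19 span them. Of 21845 windows of this size on chromosome 11, 74.5% held a match, 1.66% held at least as many, and the median was 1. The matches lie at chr11:2024243-2024268, chr11:2023838-2023863, chr11:2023437-2023462, chr11:2022004-2022029, chr11:2021598-2021623, chr11:2021192-2021217, chr11:2020269-2020294 and chr11:2019469-2019494. The 8 stretches are printed 5′ to 3′ on the minus strand with the matched letters in capitals.
match 1: aagtggccgcgcGGCGGCAGtgcagg
match 2: aagtggccgcgcGGCGGCAGtgcagg
match 3: aagtggccgcgcGGCGGCAGtgcagg
match 4: aagtggccgcgtGGCGGCAGtgcagg
match 5: aggtggctgcgcGGCGGCAGtgcagg
match 6: aagtggccgcgcGGCGGCAGtgcagg
match 7: aaatggccgagaGGCGGCAGtggtga
match 8: ctgagccgtgatGGTGGCAGgaaggg
In 6 of the 8 the match was followed by the same 6 bases, tgcagg. Nothing about binding was measured here, and a match is only a match of letters.

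Start sites are shown for MEG3 and NDN, each of which was at 0 counts in the controls of 1 line and well counted in another. They come from a RefSeq table on GRCh38.p14, which held 6 of the 10 members; DLK1, IGF2, PEG3 and PEG10 were not matched. CpG sites, the bases at which imprinted copies carry methylation, are in capitals.
MEG3: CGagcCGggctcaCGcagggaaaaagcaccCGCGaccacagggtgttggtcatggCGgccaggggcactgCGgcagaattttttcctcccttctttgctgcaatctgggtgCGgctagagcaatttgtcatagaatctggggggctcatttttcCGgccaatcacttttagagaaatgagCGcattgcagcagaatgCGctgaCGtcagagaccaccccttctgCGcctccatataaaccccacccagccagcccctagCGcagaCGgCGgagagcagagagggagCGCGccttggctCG
NDN: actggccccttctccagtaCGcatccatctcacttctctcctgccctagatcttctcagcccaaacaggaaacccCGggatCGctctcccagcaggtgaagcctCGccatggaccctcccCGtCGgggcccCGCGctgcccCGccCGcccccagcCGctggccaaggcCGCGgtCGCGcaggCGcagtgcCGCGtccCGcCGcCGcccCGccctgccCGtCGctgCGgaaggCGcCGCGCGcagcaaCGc
The MEG3 stretch (chr14:100825858-100826157, plus strand, 250 bases before to 50 after the start) holds 19 CpG sites, and 42.9% of the 35116 promoters in the table hold as many. Of NDN the 250 bases before the start are printed (chr15:23687306-23687555, minus strand), with 30 CpG sites, and its 300-base window holds 35, a number reached by 14.1% of promoters. The median promoter has 14. Methylation was not measured in these samples.

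In the controls, the members differed widely between lines (the plot of CPM by library). MEG3 averaged 265 ± 111 CPM (mean ± SD, n = 5) in SK-N-BE(2)C and 97.9 ± 51.4 CPM in IMR-32, and no count of it was found in the 5 SH-SY5Y controls, which hold 101765416 counts. With 3 counts over that group as the limit that a count of 0 allows, the pooled counts of the 5 controls, 277 CPM in SK-N-BE(2)C and 103 CPM in IMR-32, put MEG3 at least 9390-fold and at least 3480-fold higher there. This limit covers counting error only. DLK1 went with a different order, at 1164 ± 579 CPM in SK-N-BE(2)C, 72.5 ± 28.7 CPM in IMR-32 and 1494 ± 229 CPM in SH-SY5Y. H19 was highest in IMR-32, at 93.1 ± 39.7 CPM, followed by 11.4 ± 6.88 CPM in SK-N-BE(2)C and 3.44 ± 1.44 CPM in SH-SY5Y. Its neighbour IGF2, the insulin-like growth factor 2 that signals through the IGF1 receptor, was lowest in that same line, at 1.71 ± 0.772 CPM against 203 ± 67.7 CPM in SK-N-BE(2)C and 154 ± 108 CPM in SH-SY5Y.

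**Figure D1:**
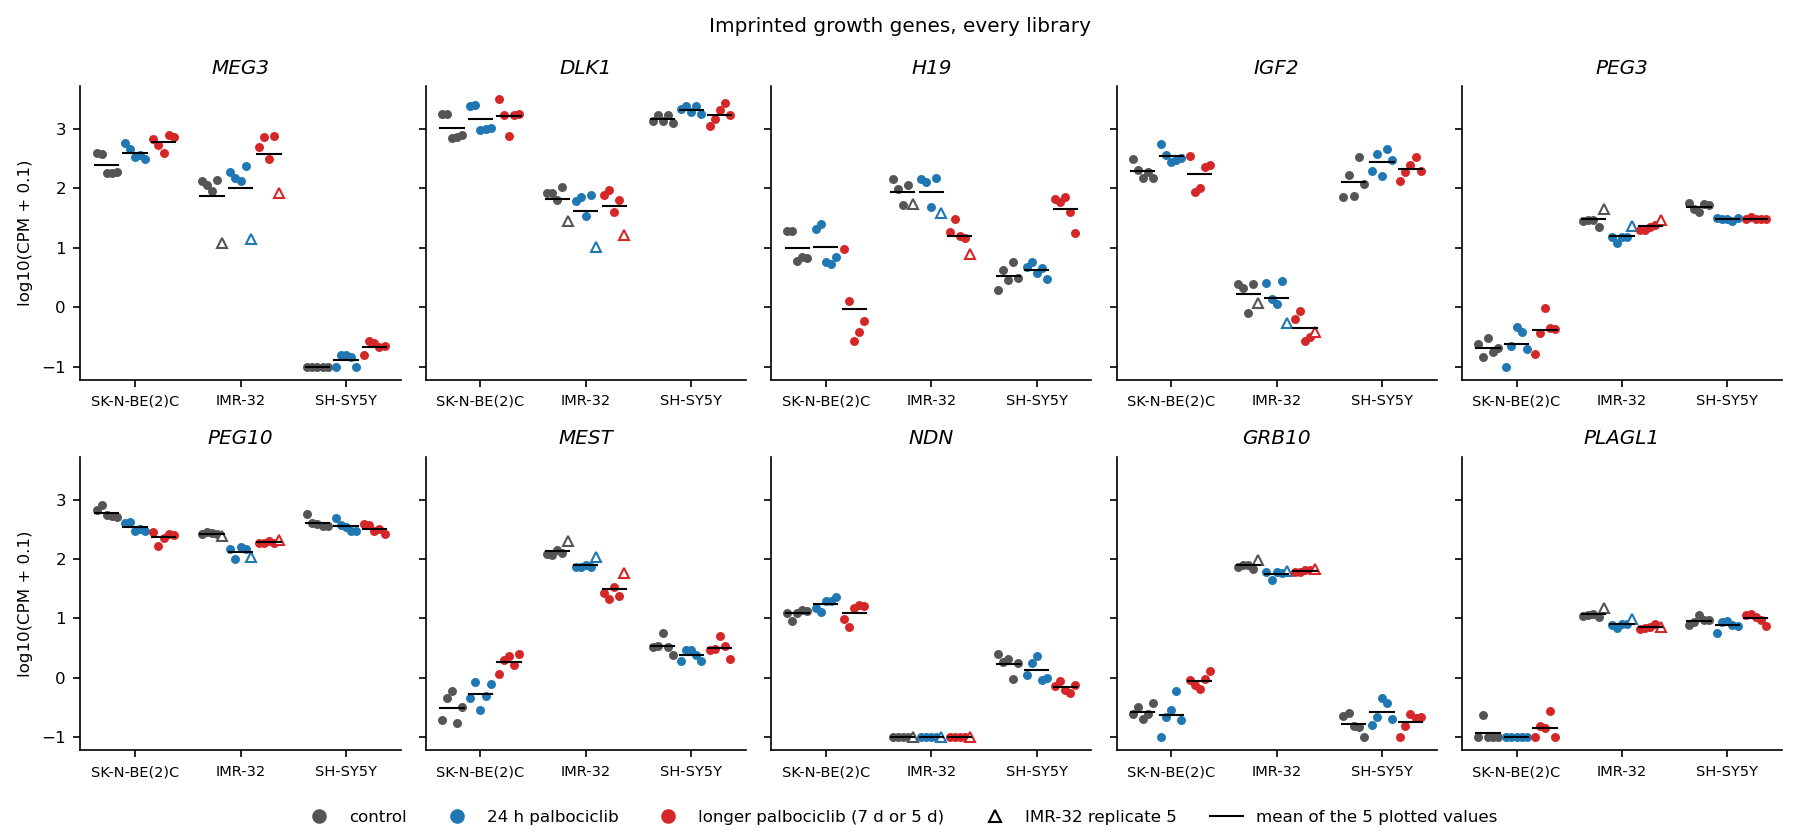
CPM of the 10 imprinted genes in each of the 45 libraries, on a log10 scale after 0.1 CPM was added, by line and condition; points are libraries and open triangles are IMR-32 replicate 5. MEG3 sat at or next to 0 in every SH-SY5Y library and NDN at 0 in every IMR-32 library, while PEG10 lay at 98.7 CPM or more in all 45.

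PEG10, a gene of retrotransposon origin that is needed for the placenta, differed least between the lines, at 611 ± 123 CPM in SK-N-BE(2)C, 263 ± 16.2 CPM in IMR-32 and 418 ± 91.6 CPM in SH-SY5Y. The zinc finger genes PEG3 and PLAGL1 were near the floor in SK-N-BE(2)C, where PLAGL1 had 8 counts in 15 libraries and PEG3 had 66. In IMR-32 and SH-SY5Y they averaged 30.9 ± 8.56 and 49.7 ± 7.28 CPM (PEG3) and 11.8 ± 1.90 and 9.15 ± 1.40 CPM (PLAGL1). MEST, a member of the alpha/beta hydrolase family, averaged 139.8 ± 34.0 CPM in IMR-32, 3.52 ± 1.18 CPM in SH-SY5Y and 0.247 CPM in SK-N-BE(2)C, the last close to the 3-count floor of a library. GRB10, an adaptor that restrains the insulin and IGF1 receptors, was an IMR-32 gene by level, at 78.6 ± 10.9 CPM, with 33 counts in the 15 SH-SY5Y libraries and 0.176 CPM in the SK-N-BE(2)C controls. NDN (necdin, which binds E2F1 and is linked to the exit of neurons from the cell cycle) had 0 counts in all 15 IMR-32 libraries, among 286358463 counts. Its level in the controls was 12.1 ± 1.87 CPM in SK-N-BE(2)C and 1.71 ± 0.562 CPM in SH-SY5Y, and by the pooled counts (11.9 and 1.73 CPM) at least 406-fold and at least 59-fold above IMR-32.

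A fit of all 45 libraries called 10 of the 10 control levels different between SK-N-BE(2)C and IMR-32, where 62.1% of all genes were called. It called 7 of 10 between SK-N-BE(2)C and SH-SY5Y (57.5% of all genes) and 9 of 10 between IMR-32 and SH-SY5Y (54.2%). PEG3 and PLAGL1 in SK-N-BE(2)C, NDN in IMR-32, and MEG3 and GRB10 in SH-SY5Y were too low to pass the filter within that line. They entered this fit through other lines, which favours a call, so these counts are a description. Neighbouring levels that were not called were DLK1 in SK-N-BE(2)C and SH-SY5Y (log2 difference -0.16 ± 0.41, adjusted p = 0.74), IGF2 in the same lines (0.60 ± 0.37, adjusted p = 0.14) and GRB10 there (1.30 ± 0.61, adjusted p = 0.050). For PEG10, IMR-32 was below SH-SY5Y by less than the fold limit (-0.48 ± 0.15, adjusted p = 0.0052). The 2 smallest called differences were both between IMR-32 and SH-SY5Y, PEG3 (-0.50 ± 0.18, adjusted p = 0.010) and PLAGL1 (0.55 ± 0.18, adjusted p = 0.0068), and they lost the call under 5 and 3 of 10 alternatives, in all of which the sign stayed. Scaling by library size alone moved the median of all genes by -0.19 and -0.18 in the comparisons with SH-SY5Y.

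With PB, members were called in both directions, and at the longer time H19 was called higher in SH-SY5Y but lower in both other lines (the plot of fold changes). After the filter 8 members could be tested in SK-N-BE(2)C (PEG3 and PLAGL1 were too low), 9 in IMR-32 (without NDN) and 8 in SH-SY5Y (without MEG3 and GRB10). MEST and GRB10 of SK-N-BE(2)C passed the filter through the 7 d libraries alone, which favours a call of higher at 7 d, so totals are also given without them. At 24 h, 1 member was lower and none higher in SK-N-BE(2)C, where 10.6% of 14055 genes were called lower and 10.9% higher. IMR-32 had 4 lower and none higher at that time (10.5% of 14293 genes lower and 7.87% higher), and SH-SY5Y 1 higher and 1 lower (10.5% of 14547 genes higher and 11% lower). At the longer time SK-N-BE(2)C had 3 higher and 2 lower (24.5% and 22.3% of genes), IMR-32 had 1 higher and 4 lower (16.6% and 15.5%), and SH-SY5Y had 1 higher and 2 lower (18.6% and 17.3%). Between the treated times there were 2 higher and 3 lower in SK-N-BE(2)C (17.5% and 14.4% of genes), 0 higher and 3 lower in IMR-32 (10.8% and 8.86%), and 1 higher and 1 lower in SH-SY5Y (10.5% and 6.23%). Without MEST and GRB10, SK-N-BE(2)C had 1 higher and 2 lower of 6 members at 7 d against control, and 0 higher and 3 lower against 24 h. A count of 1 or 2 among 8 or 9 members is near these background shares and is no result about the members as a set. The median log2 fold change of the members tested, with the lines in the same order, was 0.48, -0.46 and -0.25 at 24 h, compared with 0.33, -0.46 and -0.06 after longer treatment. Without MEST and GRB10 the SK-N-BE(2)C medians were 0.48 at 24 h and -0.01 at 7 d. The medians of all genes lay between 0.00 and 0.06 in these comparisons. Where libraries of 2 groups are said not to overlap, the same held at 24 h against control for 39.3%, 23.1% and 38.5% of genes in the 3 lines in the order above, at the longer time against control for 53.8%, 39.1% and 47.0%, and between the treated times for 40.4%, 23.5% and 24.7%. The comparisons of a line share their control or treated libraries.

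**Figure D2:**
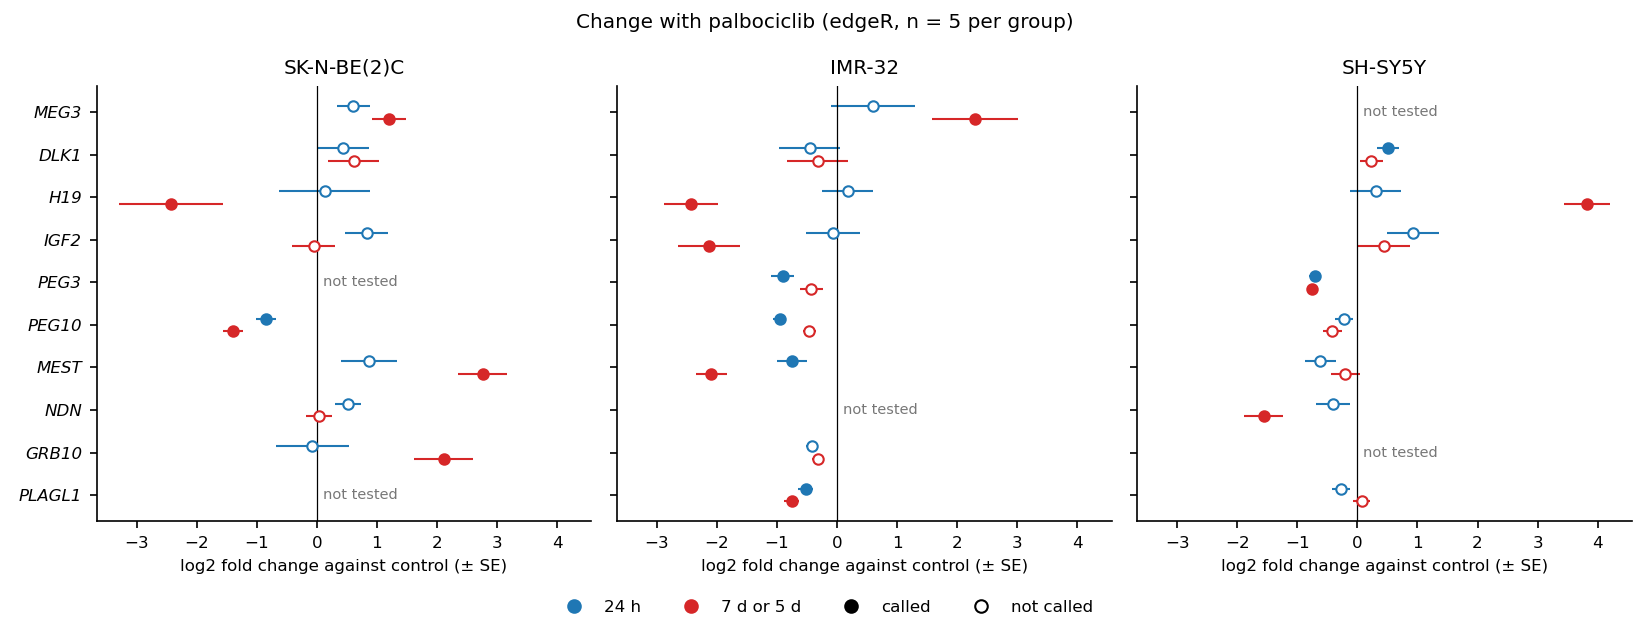
Log2 fold changes of the members tested in each line at 24 h and at the longer time against control, with bars of ± 1 standard error; filled points were called and open points were not. H19 lay at -2.43 in SK-N-BE(2)C, at -2.43 in IMR-32 and at 3.82 in SH-SY5Y at the longer time, and MEST at 2.76, -2.10 and -0.20.

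MEG3, whose RNA is known for growth-restraining activity, rose at the longer time in both lines that use it. In SK-N-BE(2)C, its CPM in replicates 1 to 5 was 392, 381, 180.0, 182 and 189 in control, 582, 468, 333, 368 and 317 at 24 h and 680.0, 549, 392, 793 and 728 at 7 d. Replicates 1 and 2 of the controls lay above the level that replicates 3 to 5 reached at 24 h, so the groups overlapped although at 24 h MEG3 was higher in 5 of 5 libraries than in the control of the same number. The change was 1.20 ± 0.28, adjusted p = 0.0013 at 7 d, 2.37-fold by the means, and 0.61 ± 0.28, adjusted p = 0.084 at 24 h, which was not called. The replicate numbers pair the libraries of these 2 conditions, and with the number as a block the 24 h change was called (0.65, adjusted p = 0.024). In replicates 3 to 5 alone, a choice made after seeing the data, it was called as well (0.84, adjusted p = 0.024), and the 7 d change was 1.74, adjusted p = 0.00044.

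In IMR-32, MEG3 in replicates 1 to 5 stood at 131, 116, 91.4, 139 and 12 CPM in control, 187, 148, 131, 235 and 13.8 CPM at 24 h and 508, 749, 317, 764 and 84.5 CPM at 5 d. Replicates 1 to 4 were at 91.4 CPM or more in control and at 317 CPM or more at 5 d, without overlap, and replicate 5 was the lowest library in each condition yet went from 12 to 84.5 CPM. The 5 d change was 2.29 ± 0.72, adjusted p = 0.016, called, and 2.28, adjusted p = 1.8e-05 without replicate 5 of each group. It lost the call without replicate 2, 3 or 4 (adjusted p = 0.064, 0.050 and 0.056), and adjusted p over the 26 alternatives ran from 2.0e-07 to 0.064. The 24 h change was not called (0.60 ± 0.69, adjusted p = 0.54), nor without replicate 5 (0.60, adjusted p = 0.084), but it was with the replicate block (0.54, adjusted p = 0.015). From 24 h to 5 d the change was 1.70 ± 0.71, adjusted p = 0.076, and it was called without replicate 5 (1.67, adjusted p = 0.00031) and with the block (1.81, adjusted p = 2.6e-06). SH-SY5Y had 0 counts of MEG3 in its 5 controls, 3 counts at 24 h and 11 at 5 d, the highest library at 0.167 CPM. Each 5 d library held 1 to 3 counts and so lay above all 5 controls, but the gene was too low to be tested there. The MEG3 rise of SK-N-BE(2)C and that of IMR-32 were not called different (-1.05 ± 0.67, adjusted p = 0.24), although without replicate 5 of IMR-32 they were (-1.05, adjusted p = 0.019), with the larger log2 change in IMR-32.

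DLK1, at chr14:101192042-101204561 (GRCh37) upstream of MEG3 at chr14:101245747-101327368, was called in SH-SY5Y at 24 h alone, and in the other lines its groups overlapped. Replicates 1 to 5 of SK-N-BE(2)C held 1821, 1772, 706, 726 and 795 CPM in control, 2488, 2549, 969, 1008 and 1044 CPM at 24 h and 3168, 1736, 751, 1749 and 1779.7 CPM at 7 d. Replicates 1 and 2 lay above replicates 3 to 5 by 2.42-fold by the means in control and 2.5-fold at 24 h, more than the means of the groups differed. Every 24 h library was above the control of its number, yet neither 24 h (0.44 ± 0.42, adjusted p = 0.42) nor 7 d (0.62 ± 0.42, adjusted p = 0.20) was called. In IMR-32 the values were 85.1, 82.9, 62.6, 104 and 28.4 CPM in control, 60.2, 71.7, 34.7, 76.9 and 10.3 CPM at 24 h and 78.1, 93.5, 39.3, 64.6 and 16.4 CPM at 5 d, again with replicate 5 lowest throughout. The 24 h change there was not called (-0.46 ± 0.51, adjusted p = 0.52) but was with the replicate block (-0.62, adjusted p = 0.0076). In SH-SY5Y, DLK1 was at 1368, 1726, 1357, 1757 and 1264 CPM in control, 2165, 2402, 1916, 2439.9 and 1802 CPM at 24 h and 1130.2, 1479, 2106, 2757 and 1707 CPM at 5 d. No 24 h library overlapped the controls, and the change was called at 0.51 ± 0.19, adjusted p = 0.036, close to the fold limit, and the call was lost under 16 of 26 alternatives with values from 0.45 to 0.58. The 5 d change was not called (0.23 ± 0.19, adjusted p = 0.30).

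The other genes of the chromosome 14 cluster were a list of their own (the plot of the 14q32 cluster). RTL1, a retrotransposon-derived gene used from the paternal copy like DLK1, averaged 1555 ± 326 CPM in the SH-SY5Y controls and 15.1 ± 11.8 CPM in those of SK-N-BE(2)C, and had 2 counts in the 15 IMR-32 libraries. It rose by 7 d of PB in SK-N-BE(2)C (log2 fold change 1.90 ± 0.66, adjusted p = 0.018) and at 5 d in SH-SY5Y, where MEG3 was next to absent (0.51 ± 0.14, adjusted p = 0.0031). RTL1 overlaps MEG8 on the opposite strand and the strand counted is not given, so their values are uncertain. MEG8 and MEG9, noncoding RNAs of the maternal copy, were at 23.1 ± 6.32 and 10.0 ± 4.37 CPM in SK-N-BE(2)C, at 5.47 ± 2.6 and 1.83 ± 0.893 CPM in IMR-32 and below 1 CPM in SH-SY5Y. MEG9 rose at 5 d in IMR-32 (1.71 ± 0.60, adjusted p = 0.028), from 1.81, 2.10, 2.18, 2.72 and 0.345 CPM to 6.98, 7.96, 5.73, 8.71 and 1.01 CPM in replicates 1 to 5. DIO3, the deiodinase that inactivates thyroid hormone, was counted above 1 CPM in SH-SY5Y alone among the lines and fell there at 5 d, from 18.9 ± 3.63 to 8.18 ± 2.18 CPM (-1.27 ± 0.19, adjusted p = 1.3e-05).

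**Figure D3:**
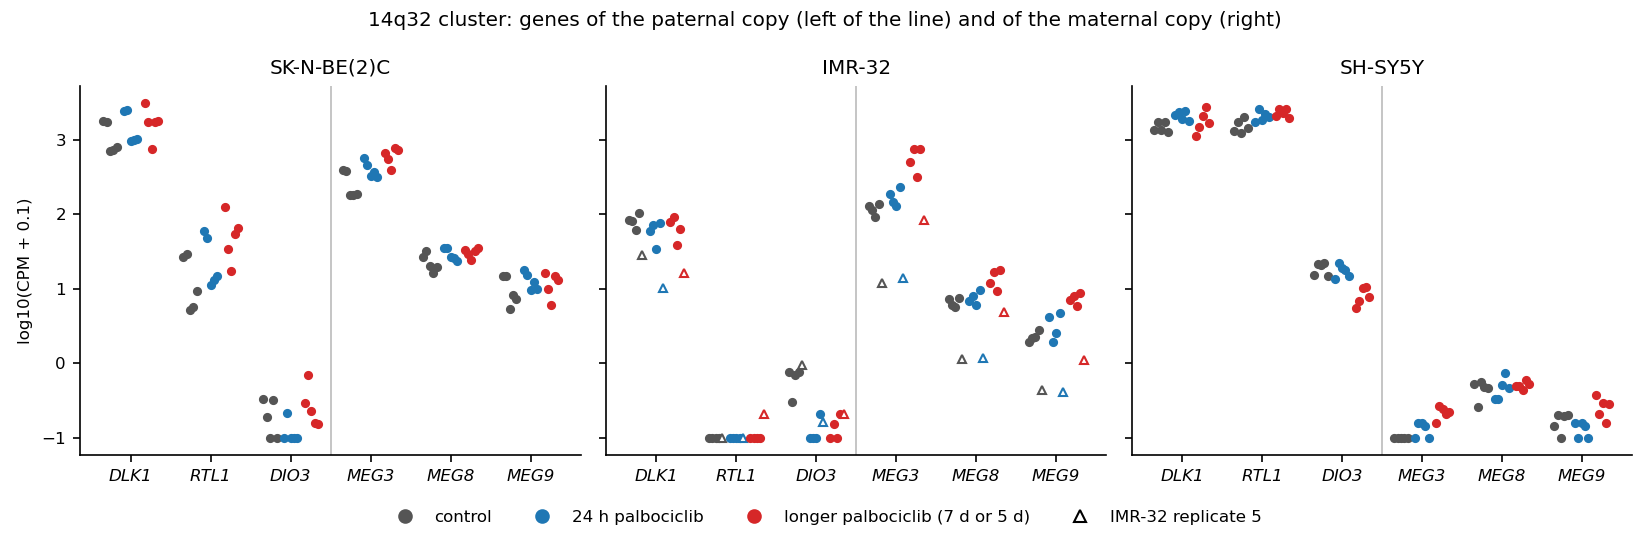
CPM of genes of the 14q32 cluster in the 45 libraries, on a log10 scale after 0.1 CPM was added, by line and condition; points are libraries and open triangles are IMR-32 replicate 5. SH-SY5Y carried DLK1 and RTL1 at 1130 CPM or more each with MEG3 at 0.167 CPM or less, whereas IMR-32 carried MEG3 with 2 counts of RTL1 in all.

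H19 fell in 2 lines and rose in the third at the longer time, and it was not called in any line at 24 h. SK-N-BE(2)C had 18.8, 19.1, 5.79, 6.84 and 6.54 CPM in replicates 1 to 5 of the control, 21.0, 24.8, 5.67, 5.30 and 6.94 CPM at 24 h and 9.41, 1.19, 0.168, 0.284 and 0.496 CPM at 7 d. Replicate 1 at 7 d was above the 3 lowest controls, so the groups overlapped. The 7 d change was -2.43 ± 0.86, adjusted p = 0.021 against control and -2.56 ± 0.86, adjusted p = 0.019 against 24 h. The call against 24 h was lost under 3 of 27 alternatives, without replicate 2 (-1.99, adjusted p = 0.11), replicate 5 (-2.45, adjusted p = 0.055) or the 24 h library of replicate 2 (-2.16, adjusted p = 0.054). The call against control was lost without replicate 2 (-1.99, adjusted p = 0.097), 4 (-2.27, adjusted p = 0.051) or 5 (-2.31, adjusted p = 0.055) and without the filter on low counts (-2.46, adjusted p = 0.052). Over the 27 alternatives adjusted p ran from 2.9e-08 to 0.097, the lowest in replicates 3 to 5 alone, where the change was -4.42, adjusted p = 2.9e-08. In IMR-32, H19 stood at 144, 97.7, 52.3, 116 and 54.9 CPM in control, 143, 129.6, 48.3, 148 and 37.8 CPM at 24 h and 18.6, 30.4, 15.9, 14.3 and 7.79 CPM at 5 d. Each library at 5 d lay below every other IMR-32 library (-2.43 ± 0.46, adjusted p = 0.00059), 5.36-fold lower than control by the means, and the change from 24 h was -2.61 ± 0.46, adjusted p = 0.00069.

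In SH-SY5Y, H19 went the other way, from 1.81, 4.10, 2.76, 5.58 and 2.96 CPM in the controls and 4.57, 5.71, 3.74, 4.55 and 2.83 CPM at 24 h to 66.8, 60.0, 71.1, 39.4 and 17.3 CPM at 5 d. The lowest 5 d library was above every other library of the line, and the means differed 14.8-fold (3.82 ± 0.38, adjusted p = 7.4e-07 against control and 3.51 ± 0.37, adjusted p = 1.2e-05 against 24 h). Both calls were kept under every alternative run. The longer response of H19 differed between SH-SY5Y and each of the other lines, by -6.31 ± 0.90, adjusted p = 1.2e-06 for SK-N-BE(2)C and by -6.31 ± 0.83, adjusted p = 2.9e-07 for IMR-32. These other lines were not called different from each other (log2 difference 0.00).

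IGF2, at chr11:2150342-2179621 (GRCh37), was called against control in IMR-32 alone. Its levels in SK-N-BE(2)C were 316, 206, 151, 193 and 150.1 CPM in control, 571, 372, 276, 299 and 322 CPM at 24 h and 348, 85.5, 101, 228 and 244 CPM at 7 d in replicates 1 to 5. Each 24 h library was above its numbered control. The 24 h change was 0.83 ± 0.36, adjusted p = 0.072 and was called with the replicate block (0.83, adjusted p = 0.015). The drop from 24 h to 7 d was called (-0.88 ± 0.36, adjusted p = 0.047), but the call was lost under 18 of 27 alternatives (adjusted p from 0.0058 to 0.15), and 7 d did not differ from control beyond its spread (-0.05 ± 0.36, adjusted p = 0.90). In SH-SY5Y the values were 72.6, 168, 75.5, 335 and 119.6 CPM in control, 193, 373, 162, 456 and 299 CPM at 24 h and 133, 186, 248, 336 and 194 CPM at 5 d. Neither change passed (0.93 ± 0.43, adjusted p = 0.091, and 0.44 ± 0.43, adjusted p = 0.39), and with the block the 24 h one did (1.06, adjusted p = 0.0074). In IMR-32, where IGF2 was scarce, it fell at 5 d from 2.39, 2.0, 0.708, 2.38 and 1.09 CPM to 0.524, 0.763, 0.172, 0.219 and 0.280 CPM (-2.13 ± 0.52, adjusted p = 0.0031), with overlap, and it was also lower than at 24 h (-2.06 ± 0.52, adjusted p = 0.0070). IGF2 lies on the same strand as the read-through gene INS-IGF2, which has no row of its own in the counts, and shares 8166 bases with the opposite-strand IGF2-AS, so its reads are uncertain to that extent.

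PEG10 and PEG3 were the members lower at 24 h in more than 1 line. PEG10 in SK-N-BE(2)C went from 674, 799, 540.2, 524 and 516 CPM in control to 402, 421, 297, 319.9 and 295 CPM at 24 h and 287, 168, 225, 263 and 250.4 CPM at 7 d, each step without overlap. The changes were -0.85 ± 0.16, adjusted p = 0.00060 at 24 h and -1.40 ± 0.17, adjusted p = 2.0e-06 at 7 d, and the call at each time was kept under every alternative. The further step from 24 h to 7 d (-0.55 ± 0.16, adjusted p = 0.0093) lost its call under 5 of 27 alternatives, through a fold below the limit. In IMR-32, PEG10 was at 262, 283, 273, 259 and 239.8 CPM in control, 145, 98.7, 161, 147 and 108 CPM at 24 h and 183, 189, 202, 186 and 205 CPM at 5 d. It fell at 24 h (-0.95 ± 0.11, adjusted p = 5.8e-06) and stood part of the way back at 5 d (-0.46 ± 0.11, adjusted p = 0.0023 against control, under the fold limit). From 24 h to 5 d the difference was 0.49 ± 0.11, adjusted p = 0.0026, short of the fold limit, and it passed with the replicate block (0.51, adjusted p = 0.0012). In SH-SY5Y, PEG10 averaged 418 ± 91.6, 360.5 ± 80.5 and 329 ± 54.1 CPM in control, at 24 h and at 5 d, with no call.

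PEG3, a zinc finger gene linked to cell death, fell at 24 h in both lines that use it. In IMR-32 replicates 1 to 5 stood at 28.6, 29.1, 29.3, 22.2 and 45.3 CPM in control, 14.9, 11.8, 14.9, 15.2 and 23.3 CPM at 24 h and 19.8, 20, 22.2, 23.9 and 29.7 CPM at 5 d. The 24 h change was -0.91 ± 0.19, adjusted p = 0.0022, with replicate 5 at 24 h just above the lowest control, and the 5 d change, -0.43 ± 0.19, adjusted p = 0.074, was not called; replicate 5 was the highest library in each condition. In SH-SY5Y it went from 56.8, 44.8, 39.5, 54.4 and 53.1 CPM to 32.3, 30.7, 30.1, 28.1 and 31.9 CPM at 24 h and 30.8, 33.0, 30.9, 30.1 and 30.5 CPM at 5 d. Both treated groups lay below every control (-0.71 ± 0.08, adjusted p = 1.7e-06 and -0.75 ± 0.08, adjusted p = 4.8e-07), and they hardly differed from each other (-0.04 ± 0.09, adjusted p = 0.75). The SK-N-BE(2)C libraries held 0.0439 to 0.200 CPM in control, 0 to 0.362 CPM at 24 h and 0.0631 to 0.883 CPM at 7 d, and no library had more than 21 counts. PEG3 shares its whole length with ZIM2 on the same strand, so reads could be counted to either.

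MEST fell in IMR-32 and was higher at 7 d in SK-N-BE(2)C, where it passed the filter through its 7 d libraries alone. In IMR-32 it was at 119.8, 116, 141, 123 and 198 CPM in control, 72.2, 73.5, 79.2, 72.0 and 108 CPM at 24 h and 26.5, 21.3, 34.2, 24.1 and 58.6 CPM at 5 d, with replicate 5 the highest each time. The 5 d libraries lay below all others (-2.10 ± 0.26, adjusted p = 1.7e-05 against control and -1.35 ± 0.25, adjusted p = 0.00099 against 24 h), 4.24-fold below the control mean. The 24 h change (-0.75 ± 0.25, adjusted p = 0.031) lost its call under 11 of 26 alternatives (adjusted p from 0.00011 to 0.11), although it was -0.70, adjusted p = 0.00013 without replicate 5. MEST in SK-N-BE(2)C was at 0.0936, 0.351, 0.499, 0.0743 and 0.216 CPM in control, 0.350, 0.747, 0.181, 0.390 and 0.679 CPM at 24 h and 1.07, 1.89, 2.23, 1.53 and 2.37 CPM at 7 d, from the floor to a low level (2.76 ± 0.41, adjusted p = 1.7e-05 against control and 1.89 ± 0.37, adjusted p = 0.00041 against 24 h). In the fit without the filter, which this selection does not touch, the 7 d change against control was 2.73, adjusted p = 3.6e-06. MEST shares 4863 bases with the opposite-strand MESTIT1, so its reads are uncertain if strand was not used in the counting. In SH-SY5Y it averaged 3.52 ± 1.18, 2.32 ± 0.535 and 3.19 ± 1.14 CPM, and the 24 h change (-0.61 ± 0.25, adjusted p = 0.053) was called with the replicate block (-0.59, adjusted p = 0.0041).

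The remaining members are linked to the brake on growth. NDN fell in SH-SY5Y at 5 d, from 2.41, 1.74, 1.93, 0.859 and 1.64 CPM in control and 1.01, 1.69, 2.19, 0.820 and 0.890 CPM at 24 h to 0.616, 0.781, 0.531, 0.448 and 0.664 CPM (-1.56 ± 0.32, adjusted p = 0.00032), a low level of 8 to 14 counts per library at 5 d. Against 24 h it was also lower (-1.15 ± 0.33, adjusted p = 0.0093), and this call was lost without replicate 3 (-0.86, adjusted p = 0.076). NDN in SK-N-BE(2)C was at 12, 9.04, 12.4, 13.9 and 13.2 CPM in control, 14.7, 12.5, 19.3, 19.8 and 22.6 CPM at 24 h and 9.72, 7.02, 15.1, 16.4 and 15.8 CPM at 7 d. Here replicates 3 to 5 were above replicates 1 and 2 in every condition, the reverse of MEG3, DLK1, H19 and IGF2 in control and at 24 h, and no change was called (0.52 ± 0.21, adjusted p = 0.058 at 24 h). In replicates 3 to 5 alone the 24 h value was 0.60, adjusted p = 0.00018.

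GRB10 in IMR-32 stood at 71.8, 78.9, 78.9, 67.5 and 96.0 CPM in control, 60.6, 44.5, 61.2, 57.0 and 62.8 CPM at 24 h and 59.9, 60.9, 64.7, 64.6 and 66.4 CPM at 5 d. Its changes passed the limit on adjusted p but not on fold (-0.42 ± 0.10, adjusted p = 0.0043 and -0.33 ± 0.10, adjusted p = 0.012). GRB10 of SK-N-BE(2)C, which also passed the filter through its 7 d libraries alone, went from 0.140, 0.219, 0.0998, 0.149 and 0.270 CPM in control and 0, 0.118, 0.181, 0.502 and 0.0970 CPM at 24 h to 0.821, 0.648, 0.546, 0.851 and 1.21 CPM at 7 d (2.11 ± 0.49, adjusted p = 0.0011), without overlap and still at or near 1 CPM, and the change from 24 h was 2.19 ± 0.49, adjusted p = 0.0012. Without the filter the 7 d change against control was 2.09, adjusted p = 0.0013. PLAGL1, a zinc finger factor known to restrain growth, fell in IMR-32 from 10.8, 11.1, 11.6, 10.4 and 15.1 CPM to 7.72, 6.81, 7.83, 7.82 and 9.77 CPM at 24 h and 6.46, 6.76, 6.94, 8.06 and 7.06 CPM at 5 d (-0.52 ± 0.13, adjusted p = 0.0050 and -0.76 ± 0.13, adjusted p = 0.00019). The 24 h call was lost without replicate 5 of each group, as the fold dropped just under the limit (-0.49, adjusted p = 0.0011). In SH-SY5Y it stayed at 9.15 ± 1.40, 7.60 ± 1.33 and 10.1 ± 1.86 CPM without a call. PLAGL1 shares 3347 bases of its strand with HYMAI, whose reads could add to it.

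The difference of responses between lines was tested in the fit of 45 libraries. A response was compared only for members that passed the filter within both lines, a limit set after the values were seen: 7 for SK-N-BE(2)C and IMR-32 (without PEG3, PLAGL1 and NDN), 6 for SK-N-BE(2)C and SH-SY5Y (without MEG3, PEG3, GRB10 and PLAGL1) and 7 for IMR-32 and SH-SY5Y (without MEG3, NDN and GRB10). At the longer time the difference was called for 3 of 7 members between SK-N-BE(2)C and IMR-32 (26.5% of the 12865 genes that passed in both), 4 of 6 between SK-N-BE(2)C and SH-SY5Y (23.1% of 13237) and 4 of 7 between IMR-32 and SH-SY5Y (23.1% of 13209). These totals hold MEST and GRB10 of SK-N-BE(2)C, admitted by their 7 d libraries. Without them the count was 1 of 5 between SK-N-BE(2)C and IMR-32, for PEG10 (-0.91 ± 0.22, adjusted p = 0.0011, the lower response in SK-N-BE(2)C), and 3 of 5 between SK-N-BE(2)C and SH-SY5Y. The values for MEST (4.88 ± 0.51, adjusted p = 1.1e-09) and GRB10 (2.46 ± 0.41, adjusted p = 9.6e-06) between SK-N-BE(2)C and IMR-32 are given as a description. The largest outside H19 among the rest was IGF2 between IMR-32 and SH-SY5Y (-2.66 ± 0.91, adjusted p = 0.023). At 24 h, the edgeR test called 0 of 7 between SK-N-BE(2)C and IMR-32 (5.34% of genes; 1 member at an unadjusted p under 0.05, and 1 called by DESeq2). It called 0 of 6 between SK-N-BE(2)C and SH-SY5Y (2.39% of genes; 3 members at an unadjusted p under 0.05, and 0 by DESeq2) and 1 of 7, PEG10, between IMR-32 and SH-SY5Y (3.57%; -0.76 ± 0.22, adjusted p = 0.034). That last call was lost under 6 of 10 alternatives.

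IMR-32 replicate 5 was low in both genes of the chromosome 14 pair, in the control and with PB (the plot of replicate 5 against the others). MEG3 was at 12 CPM against 91.4 to 139 CPM in the other controls, 13.8 CPM against 131 to 235 CPM at 24 h and 84.5 CPM against 317 to 764 CPM at 5 d, which is 9.94-, 12.7- and 6.92-fold below the mean of replicates 1 to 4. DLK1 was 2.94-, 5.93- and 4.19-fold below, at 28.4 CPM against 62.6 to 104 CPM in control. The noncoding neighbours were low too, MEG8 at 1.03 CPM against 5.55 to 7.35 CPM and MEG9 at 0.345 CPM against 1.81 to 2.72 CPM in control. H19 of this replicate was within the others in control, at 54.9 CPM against 52.3 to 144 CPM, and below them at 24 h (37.8 CPM against 48.3 to 148 CPM) and 5 d (7.79 CPM against 14.3 to 30.4 CPM). PEG3 and MEST were above the others in each condition, PEG3 at 45.3 CPM against 22.2 to 29.3 CPM and MEST at 198 CPM against 116 to 141 CPM in control, and so was GRB10, at 96.0 CPM against 67.5 to 78.9 CPM. DDC, the dopa decarboxylase gene beside GRB10, went the other way at 13.3 CPM against 42.3 to 48.5 CPM, and so did COBL on the other flank of GRB10, at 2.24 CPM against 10.8 to 14.6 CPM.

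These are values of 1 passage per condition, chosen for its MEG3 level, and no test was made. Of 13281 genes with a mean of at least 1 CPM, replicate 5 lay below the other controls for 40.6% and above them for 36.4%, and it was more than 3-fold below their mean for 4.80%. In the same order the shares were 29.7%, 34.6% and 3.70% at 24 h and 33.1%, 32.3% and 1.27% at 5 d. The sum of 14 mesenchymal markers was 1377 CPM against 739 to 814 CPM in control, 1157 CPM against 626 to 709.5 CPM at 24 h and 540.3 CPM against 334 to 431 CPM at 5 d. Of these 14 markers, 9 averaged at least 1 CPM in the IMR-32 controls. Over the IMR-32 libraries VIM reached 791 CPM and TWIST1 250 CPM, while CD44, COL1A2 and WWTR1 stayed below 1 CPM. The sum therefore does not show where each marker stood. The sum of 12 ADRN markers was 2643 CPM against 3392 to 4237 CPM in control, and 5 Schwann cell markers summed to 1.26 CPM against 2.35 to 3.65 CPM. The Schwann sum was 3.19 CPM against 3.28 to 3.80 CPM at 24 h and, within the range of the others, 6.05 CPM against 5.33 to 9.26 CPM at 5 d. MYCN (1296 CPM) and MEIS1 (300.4 CPM) were the lowest among the IMR-32 controls in this library, whereas MKI67 (777 CPM), RRM2 (199 CPM) and E2F8 (24.3 CPM), genes of cycling cells, were the highest, and at 24 h its MYCN (2468 CPM) was the highest of the group. The part of these genes in the level of MEG3 was not tested.

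**Figure D4:**
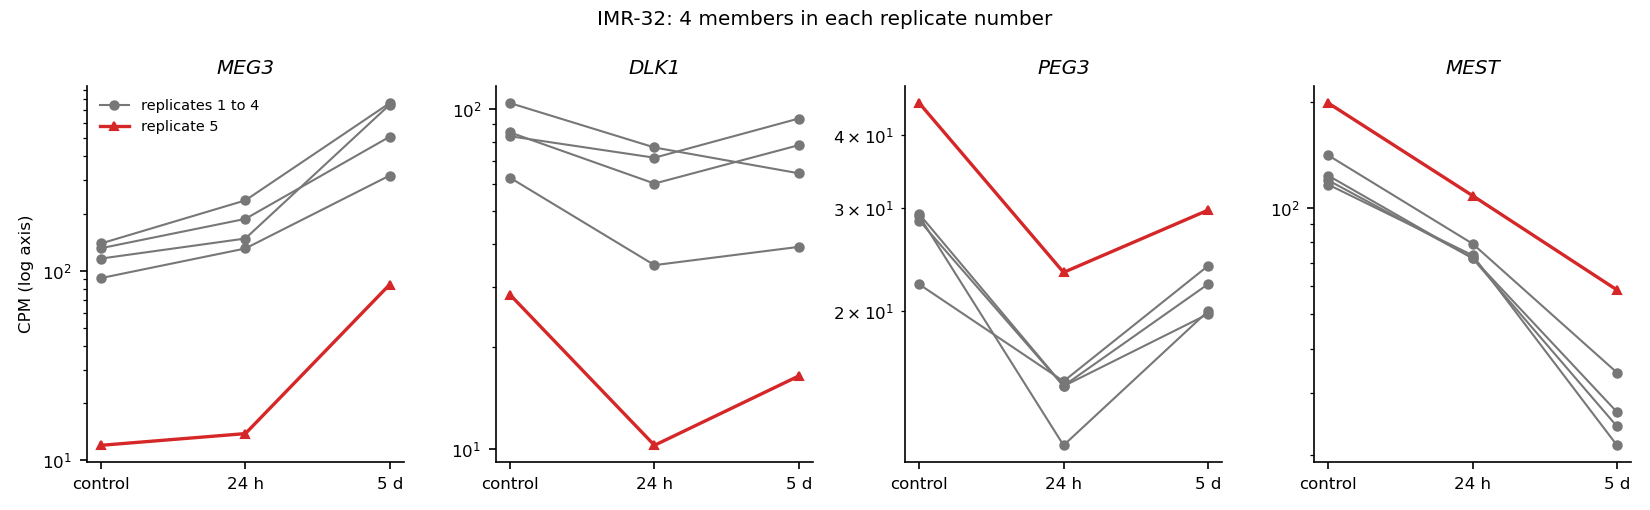
CPM of MEG3, DLK1, PEG3 and MEST in IMR-32 replicate 5 (triangles) and in replicates 1 to 4 (circles) in control, at 24 h and at 5 d, on a log axis. Lines join the libraries of the same replicate number. MEG3 and DLK1 of replicate 5 lay below the other 4 libraries in all 3 conditions, and PEG3 and MEST above them.

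Across the groups, marker sums moved with PB alongside the members. The ADRN sum in IMR-32 went from 2643 to 4237 CPM in control to 4538 to 6332 CPM at 24 h and 4539 to 5849 CPM at 5 d, and the mesenchymal sum from 739 to 1377 CPM to 626 to 1157 CPM and 334 to 540.3 CPM. In SH-SY5Y the ADRN sum went from 6237 to 7962 CPM to 8271 to 11011 CPM at 5 d and the mesenchymal sum from 2314 to 3041 CPM to 1739 to 1951 CPM. The ADRN sum of SK-N-BE(2)C went from 5561 to 5952 CPM to 8499.7 to 11008 CPM at 7 d and the mesenchymal sum from 1237 to 1415 CPM to 1090.5 to 1277 CPM, with overlap. Of 12 mesenchymal markers tested in that line, 3 were called higher at 7 d (FN1, COL3A1 and PDGFRA) and 6 lower, VIM and TWIST1 among them. PDGFRA passed the filter through its 7 d libraries alone and NOTCH2, another of the lower genes, through its controls alone, which favours their calls. Schwann cell markers summed to at most 26.4 CPM in any library. MKI67, a marker of cycling cells, was at 411 to 820.4 CPM in controls and 11.8 to 85.8 CPM at 24 h over the 3 lines. In IMR-32 it was at 186 to 293 CPM at 5 d, when the other lines held 11.3 to 147 CPM. The part of any of these in the changes of the members was not tested.

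Around the members, 23 neighbours in the same clusters were found in the counts, of which 11 (SK-N-BE(2)C), 9 (IMR-32) and 11 (SH-SY5Y) could be tested. The counts at 24 h were 2 higher and 1 lower in SK-N-BE(2)C, none called by edgeR in IMR-32, and 1 higher and 1 lower in SH-SY5Y. At the longer time they were 3 higher and 0 lower, 2 higher and 1 lower, and 1 higher and 2 lower, in the same order. With so few genes tested, these counts are read as single genes beside the 7.87% to 24.5% of all genes called in 1 direction. DDC, which makes dopamine from L-DOPA, went from 399 ± 12.7 CPM in the SK-N-BE(2)C controls to 712 ± 13.0 CPM at 24 h (0.80 ± 0.05, adjusted p = 1.1e-08). In SH-SY5Y it rose at 24 h (0.73 ± 0.19, adjusted p = 0.0052) and was below control at 5 d (-0.71 ± 0.19, adjusted p = 0.0045). Next to PEG10, SGCE (a sarcoglycan) fell at 24 h in SK-N-BE(2)C, from 73.3 ± 5.46 to 53.0 ± 1.45 CPM, just past the fold limit (-0.50 ± 0.06, adjusted p = 2.3e-06). PPP1R9A (neurabin, a neuronal actin-binding protein) rose there at 24 h (0.51 ± 0.13, adjusted p = 0.0056) and 7 d (0.77 ± 0.13, adjusted p = 7.8e-05), while PEG10 fell, and had 0 counts at 24 h in IMR-32. COBL beside GRB10, an actin nucleator, was counted above 1 CPM in IMR-32 alone and was called lower at 5 d (-1.38 ± 0.50, adjusted p = 0.033). Replicates 1 to 4 went from 10.8 to 14.6 CPM in control to 3.90 to 4.74 CPM at 5 d, while replicate 5 went from 2.24 to 3.75 CPM, so that the groups overlapped. COPG2 beside MEST averaged 6.37 ± 0.550 CPM in SK-N-BE(2)C, 25.1 ± 2.52 CPM in IMR-32 and 38.0 ± 2.10 CPM in SH-SY5Y, an order unlike that of MEST, and was not called with PB in any line. UBE3A, a ubiquitin ligase of the NDN region, kept to 85.6 to 184 CPM over all 45 libraries with no call within a line. IGF2-AS averaged 21.4 ± 4.69 CPM in the SK-N-BE(2)C controls and 8.86 ± 3.05 CPM in those of SH-SY5Y, and reached 0.163 CPM at most at 24 h in IMR-32. SNRPN, a neighbour of NDN on chromosome 15, held 175 counts in the 15 IMR-32 libraries and was higher at 5 d (1.97 ± 0.37, adjusted p = 0.00047), where it passed the filter through the 5 d libraries alone; it is named here after its values were seen, as is MIMT1, a noncoding gene beside PEG3 that was lower at 24 h in SH-SY5Y (-2.17 ± 0.45, adjusted p = 0.00061) and then higher at 5 d than at 24 h (2.36 ± 0.44, adjusted p = 0.00045). MAGEL2 and MKRN3 had 0 counts in IMR-32, as NDN did, and MKRN3 averaged 4.09 ± 0.833 CPM in the SH-SY5Y controls.

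A list around DNA methylation and imprints held enzymes that add or keep methylation, factors that protect imprints, and also TET1, TET2 and TET3, which start its removal. Of 11 tested, 5, 4 and 5 fell at 24 h in the order SK-N-BE(2)C, IMR-32, SH-SY5Y and none rose, and at the longer time the counts were 2 higher and 5 lower, 0 higher and 3 lower, and 0 higher and 6 lower. TET1 was among the lower genes at 7 d in SK-N-BE(2)C (-1.10 ± 0.10, adjusted p = 9.9e-08). It was lower at 5 d in SH-SY5Y as well (-1.18 ± 0.15, adjusted p = 3.8e-06). Of all genes, 10.6%, 10.5% and 11% were lower at 24 h, compared with 22.3%, 15.5% and 17.3% after longer treatment. The median of the 11 log2 fold change at 24 h was -0.38, -0.22 and -0.48 against 0.02, 0.06 and 0.04 for all genes. UHRF1, which brings the maintenance methyltransferase to replicating DNA, changed at 24 h by -1.93, -4.55 and -2.33 (log2, the lines in the order just given), and DNMT1, that methyltransferase, by -1.34, -1.49 and -1.40. DNMT3B, a de novo methyltransferase, changed by -1.26, -0.57 and -1.25, and CTCF, the insulator protein, by -0.50, -0.51 and -0.58. At the longer time UHRF1 (-2.22, -1.62 and -2.05), DNMT1 (-1.21, -0.78 and -1.19) and TRIM28, a corepressor that protects imprints (-0.56, -0.55 and -0.78), were lower in all 3 lines. UHRF1 and DNMT1 are also known as genes of cycling cells, and the MKI67 values above moved with them; the part of cycling in these changes was not tested.

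Other imprinted genes, 46 of them in the counts, were called in both directions. Of 31, 32 and 36 tested, the counts at 24 h were 5 higher and 6 lower in SK-N-BE(2)C, 6 higher and 4 lower in IMR-32 and 4 higher and 3 lower in SH-SY5Y. At the longer time they were 9 higher and 7 lower, 8 higher and 3 lower, and 11 higher and 6 lower. Some of the genes tested passed the filter through part of the groups, which favours a call. For PEG13 (IMR-32 and SH-SY5Y) and KCNK9 (SH-SY5Y) these were the 5 d libraries alone. ATP10A of IMR-32 passed through controls alone, and ANO1 of SK-N-BE(2)C through 24 h libraries alone. PHLDA2 (SH-SY5Y and SK-N-BE(2)C) passed through libraries of the control and of 24 h. The shares of all genes were 10.9%, 7.87% and 10.5% higher and 10.6%, 10.5% and 11% lower at 24 h. After longer treatment 24.5%, 16.6% and 18.6% were higher and 22.3%, 15.5% and 17.3% lower, so that the counts in SK-N-BE(2)C at 7 d were near the background. At 24 h 6 were called the same way in all 3 lines, among them TP73 (-2.86, -3.03 and -2.0), ZNF331, a zinc finger gene (-0.88, -0.54 and -1.0), and NAP1L5, of the nucleosome assembly family (0.82, 1.0 and 0.85). At the longer time L3MBTL1, a chromatin reader, rose in all 3 (1.54, 1.55 and 1.14) and so did ZDBF2 (1.02, 0.70 and 0.67), while TP73 was lower (-1.96, -1.19 and -1.39). None of the 10 growth genes, of which 5 could be tested in all 3 lines, was called the same way in all of them at either time.

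In the IGF axis, 16, 14 and 18 of 22 genes were tested. At 24 h the counts were 2 higher and 1 lower in SK-N-BE(2)C, 1 higher and 1 lower in IMR-32 and 2 higher and 1 lower in SH-SY5Y, and at the longer time 7 higher and 2 lower, 1 higher and 4 lower, and 2 higher and 6 lower. The 24 h counts were near the shares of all genes just given, as 10.9% were higher and 10.6% lower in SK-N-BE(2)C. PAPPA2 of SH-SY5Y, counted as higher at 5 d, passed the filter through its 5 d libraries alone, which favours that call. IRS1, the substrate through which the insulin and IGF1 receptors signal, fell in all 3 lines at 24 h (-0.78, -0.62 and -1.29) and after longer treatment (-0.78, -0.86 and -1.61). The adaptor SHC1 rose at 24 h (0.80, 0.75 and 1.13), and IGFBP4, which binds IGF1 and IGF2 outside the cell, fell at the longer time (-1.02, -2.14 and -1.28). In the Notch axis, 17, 21 and 20 of 26 genes were tested, with counts at 24 h of 1 higher and 3 lower, 2 higher and 4 lower, and 2 higher and 3 lower, and at the longer time of 5 higher and 6 lower, 1 higher and 8 lower, and 5 higher and 6 lower. The shares of all genes are those given for the other imprinted genes, with 10.6%, 10.5% and 11% lower at 24 h and then 22.3%, 15.5% and 17.3%. DLL1 of SH-SY5Y passed the filter through its 5 d libraries alone and NOTCH2 of SK-N-BE(2)C through its controls alone. NOTCH1 of SK-N-BE(2)C passed through control and 7 d libraries. Such passage favours a call. The inhibitory ligand DLL3 rose at 24 h in all 3 lines (0.70, 0.92 and 0.90). The Notch target NRARP fell at 24 h (-0.63, -0.58 and -0.92) and after longer treatment (-1.47, -1.18 and -0.93).

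The genes whose log2 CPM ran most like a member's over the 15 libraries of a line are given as a description, since those libraries share their groups and their replicate numbers. For MEG3 these were RND3 (r = 0.950), MAP6 (r = 0.949) and INHBA (r = 0.948) in SK-N-BE(2)C and FRMD3 (r = 0.984), MEG8 (r = 0.982) and LINC00265 (r = 0.982) in IMR-32. Without IMR-32 replicate 5, over 12 libraries, other genes came first, LOC100506076 (r = 0.987), MROH1 (r = 0.987) and GPR173 (r = 0.986). For DLK1 they were ATP6V1B2 (r = 0.976), SYT7 (r = 0.970) and DDAH1 (r = 0.963) in SK-N-BE(2)C, TIGD3 (r = 0.969), C17orf58 (r = 0.960) and CHRNA5 (r = 0.939) in IMR-32 and LSP1 (r = 0.902), SLC37A3 (r = 0.895) and ADAMTSL2 (r = 0.882) in SH-SY5Y. For H19 they were SCD (r = 0.977), IDH1 (r = 0.973) and CORO2A (r = 0.973) in SK-N-BE(2)C, CILP2 (r = 0.965), DNASE2 (r = 0.955) and HES2 (r = 0.953) in IMR-32 and AGTPBP1 (r = 0.977), ANO5 (r = 0.976) and RAB26 (r = 0.973) in SH-SY5Y. For IGF2 they were ACLY (r = 0.929), MREG (r = 0.929) and HBQ1 (r = 0.923) in SK-N-BE(2)C, HES2 (r = 0.954), GIPC3 (r = 0.949) and H19 (r = 0.933) in IMR-32 and TRIM29 (r = 0.935), ZSWIM5 (r = 0.907) and TSPEAR-AS1 (r = 0.905) in SH-SY5Y.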

How the data were processed

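RNA selected for polyA was sequenced in pairs from 3 neuroblastoma lines in 9 groups of 5. The authors trimmed the reads with TrimGalore 0.6.4 (phred 20), aligned them to hg19 with STAR 2.6.1d, per the submitters' processing notes, and deposited STAR's raw counts per gene. The strand setting of the counting is not given in these sources. The authors' tables of CPM and of DESeq2 1.32.0 fold changes and p-values were not used.

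Groups came from the labels. Each line's 15 libraries were fitted with edgeR 4.0.16 (R 4.3.3), using TMM factors, filterByExpr (a minimum of 10 counts and 15 in total, share 0.7) and the robust quasi-likelihood method, with F tests of 24 h against control, the longer time against control, and the longer time against 24 h, adjusted by Benjamini-Hochberg over all genes tested. A fit of all 45 libraries gave control levels and differences of responses, the latter read for genes that passed the filter within both lines. Calls needed a log2 fold change beyond 0.5 either way and an adjusted p below 0.05. The scripts were tested on simulated data. Positions follow a GENCODE annotation on GRCh37; promoters follow RefSeq on GRCh38.p14. The limit for 0 counts is 3 counts.

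Libraries of the same replicate number correlated above 0.1 after group means were taken out in all 3 comparisons of SH-SY5Y (lowest r 0.249 at 24 h, 0.109 at 5 d, 0.136 between them), in all 3 of IMR-32 (0.129, 0.114, 0.120) and, for SK-N-BE(2)C, at 24 h against control (0.243), so the number was taken to pair those libraries. It was not for the SK-N-BE(2)C comparisons with 7 d (0.0966 and 0.0482).

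The members, the gene lists and the tests were chosen with earlier results of these data known. All 10 members were described. From the other lists, genes called the same way in all 3 lines were named, at most 6 per list and comparison by mean absolute log2 fold change, and those neighbours with a mean of at least 1 CPM in a line. Likeness is the Pearson correlation of log2 CPM over the 15 libraries of a line. Alternatives were DESeq2 1.42.0, RLE factors, library size alone, no filter, no fold limit, the replicate block and leaving out replicates. SK-N-BE(2)C replicates 3 to 5 alone were added after seeing the data. Some items of the labels and marker lists are not reported here.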

Additional observations from a re-analysis of the deposited data

Results flagged for a closer look

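In 68 groups of 5 libraries screened, 5 members had a library far from the other 4, where chance alone gives about 1 in 20. These were H19 in SK-N-BE(2)C at 7 d (replicate 1 highest, 9.41 CPM), PEG3 in SH-SY5Y at 5 d (replicate 2 highest, 33.0 CPM), PEG10 in the SH-SY5Y controls (replicate 1 highest, 578 CPM), MEST in IMR-32 at 24 h (replicate 5 highest, 108 CPM) and PLAGL1 in the IMR-32 controls (replicate 5 highest, 15.1 CPM). MEG3 of IMR-32 replicate 5 did not reach this limit, which weighs the gap against the range on the linear scale.

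The response to PB differed between lines, by a test of the difference itself, in 12 cases among members that passed the filter within both lines; MEST and GRB10 of SK-N-BE(2)C passed it through their 7 d libraries alone, so their differences are descriptions. Between SK-N-BE(2)C and IMR-32 at the longer time these were PEG10 (log2 difference -0.91), MEST (4.88) and GRB10 (2.46). Between SK-N-BE(2)C and SH-SY5Y they were H19 (-6.31), PEG10 (-1.01), MEST (2.92) and NDN (1.57). Between IMR-32 and SH-SY5Y they were H19 (-6.31), IGF2 (-2.66), MEST (-1.96) and PLAGL1 (-0.88) at the longer time and PEG10 (-0.76) at 24 h. In each the first line named had the higher value when the sign is positive.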

How the results depend on the processing

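Of the 30 calls made for members within lines, 20 were kept under every alternative run, and of 38 calls between lines 34 were kept. None changed its direction. Both totals hold calls of MEST and GRB10 of SK-N-BE(2)C, favoured by a passage through their 7 d libraries alone. The total between lines also holds control levels of members too low to be tested within a line. The number of members called moved by over 1.5 times in these cases. SK-N-BE(2)C at 24 h had 1 call, 2 with library size alone or DESeq2, 3 with the replicate block and 3 with replicates 3 to 5 alone, a choice made after seeing the data, and leaving out replicates gave 1 to 3. From 24 h to 7 d it had 5, 3 in replicates 3 to 5 alone, and 2 to 6 when replicates were left out. IMR-32 had 3 from 24 h to 5 d and 5 with library size alone, DESeq2 or the replicate block (3 to 5 when replicates were left out), and 4 at 24 h (2 to 4). SH-SY5Y had 2 at 24 h, 1 without the filter, 4 with the block, and 1 to 3 with replicates left out, and 2 from 24 h to 5 d (1 to 2). Differences of the 24 h response between IMR-32 and SH-SY5Y numbered 1, 0 without the filter (0 to 1 with replicates left out), and between SK-N-BE(2)C and IMR-32 0, 1 with DESeq2 (0 to 1). The cause was not tested. In SK-N-BE(2)C the count at 24 h was 2 or 3 without any of control replicates 1 and 2, the 24 h library of replicate 2, the 7 d libraries of replicates 1 and 2, or all libraries of replicate 1, 2 or 3, and the count from 24 h to 7 d fell to 2 or 3 without replicate 2, its 24 h or its 7 d library, or replicate 5. In IMR-32 it fell to 2 at 24 h without control replicate 5 or the 24 h library of replicate 2, and rose to 5 from 24 h to 5 d without replicate 5. In SH-SY5Y it was 1 at 24 h without replicate 1, 2 or 3, control replicate 1 or 3, or the 24 h library of replicate 1 or 4, and 1 from 24 h to 5 d without replicate 3. The single 24 h difference between IMR-32 and SH-SY5Y was lost without replicate 2, 3, 4 or 5 of both lines or replicate 5 of IMR-32, whose removal also gave 1 between SK-N-BE(2)C and IMR-32. Where numbers pair the libraries, the block changed no member's call beyond those given beside the results. In SK-N-BE(2)C with 7 d, where numbers do not pair the libraries, the block also brought DLK1 (0.65, adjusted p = 0.013 against control), MEG3 (0.63, adjusted p = 0.023 against 24 h) and NDN (-0.51, adjusted p = 0.00080 against 24 h) past a limit. Among members with a call, the longer difference of IGF2 between IMR-32 and SH-SY5Y was lost under 4 of 10 alternatives (adjusted p up to 0.092).

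Depth limits MEG3 and GRB10 in SH-SY5Y, NDN and IGF2 in IMR-32 and PEG3, PLAGL1, MEST and GRB10 in SK-N-BE(2)C, whose counts per library are few. Which strand was counted bears on IGF2, MEST and RTL1, and the strand cannot separate PEG3 from ZIM2 or PLAGL1 from HYMAI.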
